A study of Mus musculus with 5 samples.

Results

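The genes described here encode RNA polymerase I, its initiation factors and the proteins that process ribosomal RNA and assemble ribosomes. They are a list of 43 genes chosen by symbol, and all 43 were found among the 18193 genes that the array's annotation names singly. The probe set of highest mean signal over all 5 arrays stands for each gene. The cells came from mouse embryonic stem cells that were differentiated on gelatin in the direction of pancreas. The groups were MPA at day 6 (1 day of exposure), control at day 6, MPA at day 8 (3 days of exposure), control at day 8, and control at day 5, the time when MPA was added to part of the cells at 2 µM. MPA is written as in the labels, which do not spell it out, and the labels give no cell line, strain or genotype. Each group was 1 array, so differences of 2 arrays are sizes with no test and no spread between cultures, and the precision is limited by the number of arrays.

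RNA polymerase I transcribes a single long precursor from the ribosomal DNA repeats, in the nucleolus. Small nucleolar ribonucleoprotein particles then guide its chemical modification, box C/D particles by methylation and box H/ACA particles by pseudouridine formation, and large assemblies cleave and fold it into the small and the large ribosomal subunit. The pathway is a main consumer of nucleotides and energy in growing cells, it is driven by the transcription factor Myc in many cell types, and pluripotent cells are known for prominent nucleoli and high output of ribosomal RNA. The arrays measured messenger RNA of the proteins and not ribosomal RNA itself.

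After 3 days of MPA nearly all members were lower than in the control of the same day. At day 8, 38 of the 43 members were lower with MPA, where 51.9% of 12599 measured genes were lower, and the median log2 difference was -0.48 for the members and -0.02 for all genes. Of the members, 12 were 1.5-fold or more lower (all genes 11.2%) and 0 were 1.5-fold higher (all genes 11.4%), and 2 were 2-fold lower (all genes 3.18%). After 1 day of MPA there was no such shift. At day 6, 22 members were lower (all genes 48.5%) and 21 higher (all genes 51.5%), with a median of -0.02 (all genes 0.02). There 7 members were 1.5-fold higher (all genes 12.8%) and 2 were 1.5-fold lower (all genes 10.8%). Of the 43, 37 had a lower MPA difference at day 8 than at day 6, against 54.2% of the 9091 genes above the floor on all 5 arrays, and the day by MPA difference has no test with 1 array per group. A signal counted as measured above a floor of 86.8, the median of all probe sets, and lower signals were raised to it.

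In the controls the members were low at day 6 and higher on either side of it. From day 5 to day 6, 39 of 43 members were lower at day 6 (all genes 48.4%), with a median log2 difference of -0.39 (all genes 0.02) and 12 members 1.5-fold lower (all genes 12.4%). From day 6 to day 8, 35 members were higher at day 8 (all genes 51.3%), with a median of 0.25 (all genes 0.02) and 11 members 1.5-fold higher (all genes 17.2%). For the same 35 members the day 6 control was the lowest of the 3 controls, a place it held in 28.3% of the 9091 genes. Over the whole span, day 8 against day 5, 22 members were higher (all genes 52.6%) and the median was 0.02 (all genes 0.04). The day 6 control enters 3 of these comparisons, so its low values appear in each. Against the day 5 control, which both MPA arrays share, 32 members were lower with MPA at day 6 (all genes 47.7%), with a median of -0.31 (all genes 0.03). Against the same control 38 members were lower with MPA at day 8 (all genes 50.4%), with a median of -0.46 (all genes -0.01). With MPA from day 6 to day 8, 27 of 42 members were lower at day 8 (all genes 52.3%), with a median of -0.18 (all genes -0.03).

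**Figure D1:**
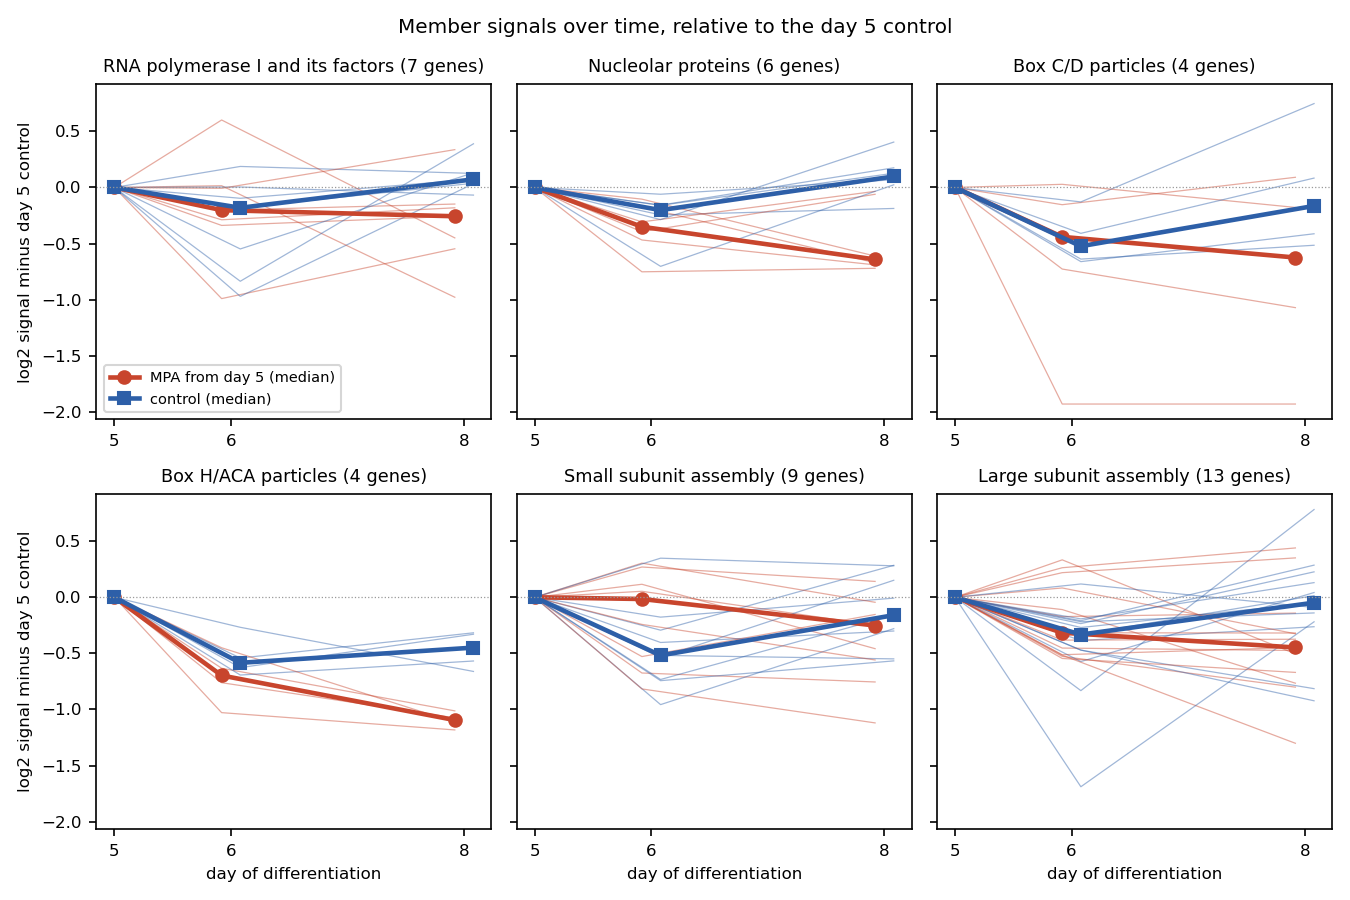
Log2 signal of each member minus its own day 5 control signal (vertical axis) against the day of differentiation, in 6 panels by role. Thin lines are single genes, thick lines with circles (MPA, drawn slightly left) and squares (control) are medians over the genes of a panel, and each group is 1 array. The control medians go down at day 6 and up at day 8 in each panel. At day 8 the MPA median lies below the control median in each panel. The lowest MPA median is that of the box H/ACA genes at -1.09, where the control median is -0.45.

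**Figure D2:**
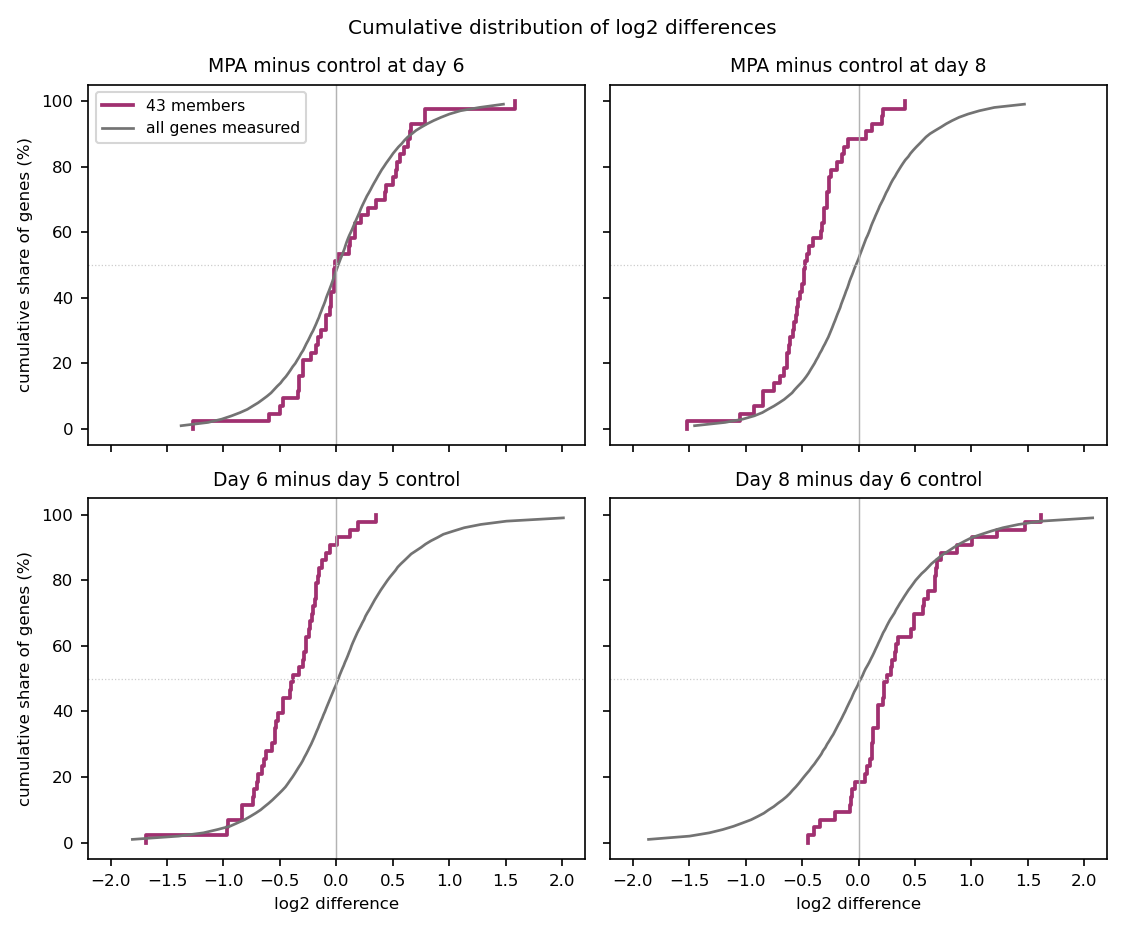
Cumulative share of genes (vertical axis, percent) against the log2 difference between 2 arrays, for the 43 members (stepped line) and for all genes measured (smooth line, percentiles 1 to 99). The member line lies left of the line of all genes for MPA minus control at day 8 and for day 6 minus day 5 in the controls, right of it for day 8 minus day 6, and near it for MPA minus control at day 6.

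The 2% trimmed mean was 500 on each array, as scaling to a common target makes it, so it does not show that the arrays were alike. Between 46.7% (MPA at day 6) and 51.9% (control at day 8) of probe sets lay above the floor. The median signal was 78.1 with MPA and 86.4 in the control at day 6, and 93.4 with MPA and 94.3 in the control at day 8. RNA integrity, read from the Gapdh control probe sets as the 3'/5' ratio, was 1.57 with MPA and 1.55 in the control at day 8, 1.31 with MPA and 1.19 in the control at day 6, and 1.08 at day 5, and that of Actb was 2.71 with MPA and 2.81 in the control at day 8, 3.06 with MPA and 3.04 in the control at day 6, and 2.08 at day 5. Genes with a mean signal above 1000, to which 31 of the members belong, had median log2 differences of 0.00 for MPA at day 6 and -0.04 for MPA at day 8. Markers of dividing cells were lower with MPA too, and in the controls they were mostly higher at day 6 and lower at day 8. Of 14 such markers 14 were lower with MPA at day 8 (median -0.39) and 11 at day 6 (median -0.24), and in the controls 12 were higher at day 6 than at day 5 and 14 were lower at day 8 than at day 6. Their summed signal was 78116 at day 5, 78089 with MPA and 92708 in the control at day 6, and 39939 with MPA and 53398 in the control at day 8. The culture's makeup also differed with MPA. Of 11 neural markers 7 were above the floor with MPA at day 8 and 10 in the control, with summed signals of 2711 with MPA and 12568 in the control, and all 10 measured were lower with MPA. The 14 endoderm and pancreas markers summed to 24837 with MPA and 12788 in the control. Of the 14, 10 were higher with MPA at day 8, with 9594 for Foxa1 with MPA and 4339 in the control, and 4 were lower, among them Sst and Sox17, where Sox17 had 485 with MPA and 1550.3 in the control. At day 6 the makeup already differed, with neural markers summing to 1399 with MPA and 3123 in the control (7 of 8 lower, median -1.55). The endoderm and pancreas markers summed to 18926 with MPA and 11263 in the control at day 6. Of the 14, 5 were above the floor on all 5 arrays (Sox17, Foxa2, Foxa1, Gata6 and Neurod1), and Pdx1, which defines the pancreatic bud, read 90.4 with MPA and 78.6 in the control at day 8, next to the floor. Pou5f1, of pluripotent cells, read 7598 at day 5 and 56.4 with MPA and 96.0 in the control at day 8. The 7 pluripotency markers did not all go this way. Of the 5 measured at day 8, 3 were higher and 2 lower with MPA. Klf4 read 61.4 at day 5 and 1956 with MPA and 672 in the control at day 8. The list summed to 35059 at day 5 and 2458 with MPA and 1075 in the control at day 8. The part of cell division, cell makeup and RNA integrity in the member differences was not tested, and in bulk RNA fewer cells of a type and less RNA per cell cannot be told apart.

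The promoters of 5 members are shown because these had the largest mean MPA difference over both days among members with a single promoter window. The windows run from 250 bases before to 50 after a transcription start of RefSeq (build GRCm38.p6), 5′ to 3′ on the gene's strand, with capitals marking a searched motif. The set holds the box C/D protein gene Rrp9, the box H/ACA genes Gar1 and Dkc1, the polymerase subunit gene Polr1b and the small subunit assembly gene Wdr43.
Rrp9, chr9:106477059-106477358, plus strand: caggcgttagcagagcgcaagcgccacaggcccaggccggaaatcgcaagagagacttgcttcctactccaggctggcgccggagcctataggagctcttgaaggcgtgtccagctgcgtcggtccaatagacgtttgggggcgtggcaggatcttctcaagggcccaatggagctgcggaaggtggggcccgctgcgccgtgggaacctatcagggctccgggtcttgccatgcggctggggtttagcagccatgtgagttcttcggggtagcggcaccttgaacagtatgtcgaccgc
Gar1, chr3:129831347-129831646, minus strand: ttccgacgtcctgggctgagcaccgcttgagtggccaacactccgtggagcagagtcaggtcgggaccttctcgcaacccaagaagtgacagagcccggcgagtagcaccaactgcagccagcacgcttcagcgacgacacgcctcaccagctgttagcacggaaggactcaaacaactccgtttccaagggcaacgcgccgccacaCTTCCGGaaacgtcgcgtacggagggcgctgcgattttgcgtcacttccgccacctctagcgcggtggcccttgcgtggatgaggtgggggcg
Polr1b, chr2:129100746-129101045, plus strand: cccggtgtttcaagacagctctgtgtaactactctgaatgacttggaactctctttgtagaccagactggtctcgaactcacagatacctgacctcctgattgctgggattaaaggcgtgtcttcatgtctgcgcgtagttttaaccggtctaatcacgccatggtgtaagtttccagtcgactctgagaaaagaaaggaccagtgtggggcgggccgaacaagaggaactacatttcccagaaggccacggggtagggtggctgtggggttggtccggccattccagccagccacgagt
Dkc1, chrX:75095604-75095903, plus strand: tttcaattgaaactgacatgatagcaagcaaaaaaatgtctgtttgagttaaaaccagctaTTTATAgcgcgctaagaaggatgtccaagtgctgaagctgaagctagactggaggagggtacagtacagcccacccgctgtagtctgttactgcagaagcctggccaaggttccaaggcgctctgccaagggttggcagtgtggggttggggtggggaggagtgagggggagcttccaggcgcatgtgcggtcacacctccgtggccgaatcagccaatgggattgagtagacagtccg
Wdr43, chr17:71615965-71616264, plus strand: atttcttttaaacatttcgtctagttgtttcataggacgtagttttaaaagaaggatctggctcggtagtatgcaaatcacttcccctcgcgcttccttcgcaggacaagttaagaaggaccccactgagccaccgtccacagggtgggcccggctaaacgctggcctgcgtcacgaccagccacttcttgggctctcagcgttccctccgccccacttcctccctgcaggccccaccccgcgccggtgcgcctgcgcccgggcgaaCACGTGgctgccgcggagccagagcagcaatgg
Gar1 holds CCGGAAG on the opposite strand at position -43, and Dkc1 holds TATAAA on the opposite strand at position -189, counted from 0 at the start site. Wdr43 holds CACGTG at position 17. Rrp9 and Polr1b hold none of the 5 motifs searched, which says only that these letters are not in the window. A promoter was given for 36 of the 43 members (45 windows). CACGTG, the E-box that Myc and Max bind among other factors, was in the window of 7 of the 36, Imp4, Mybbp1a, Nop2, Pes1, Rrn3, Utp20 and Wdr43. It was in 7.15% of all 32851 windows, and among genes above the floor on all 5 arrays 12.44% held it. The 7 genes with CACGTG had a median MPA difference at day 8 of -0.31, and the members without it one of -0.49. CCGGAAG, the core of motifs of the ETS family, was in 12 of the 36, against 8.86% of all windows and 22.71% of the genes above the floor. TATAAA was in 2 of 36, against 13.62% of all windows and 8.13% of the genes above the floor. The palindromic motifs of NRF1 and BANP were in 0 of 36, against 0.971% and 0.466% of all windows and 2.65% and 1.37% of the genes above the floor. Motifs were searched on both strands, and none holds another within it. The median share of G and C was 58.3% in the member windows, 52.7% in all windows and 61.7% in windows of genes above the floor, and these matches are a description of letters, not of binding.

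RNA polymerase I and its factors, 7 genes, were mostly lower with MPA at day 8. Of the 7, 6 were lower at day 8 (all genes 51.9%), with a median log2 difference of -0.49. At day 6, 3 were lower (all genes 48.5%), with a median of 0.11. Polr1b, one of the 2 large subunits that form the active centre, had the lowest difference of the 7 at day 8. Polr1b gave a signal of 549 at day 5, of 555 with MPA and 514 in the control at day 6, and of 279 with MPA and 578 in the control at day 8. Its expression at day 8 with MPA was the lowest of the 5 arrays, a log2 difference of -1.05 from the control, and at day 6 it was 0.11. Polr1a encodes the largest subunit, which shares the active centre. Polr1a gave a signal of 919 at day 5, of 463 with MPA and 469 in the control at day 6, and of 629 with MPA and 941 in the control at day 8. The 2 day 6 arrays were alike and low, and at day 8 the control stood near the day 5 level while MPA did not (log2 difference -0.58 for MPA at day 8). Of its 2 other probe sets with measurable signal, 1 gave 0.43 for MPA at day 8, the opposite direction, and for day 6 minus day 5 in the controls they gave -0.22 and 0.13, against -0.97 on the chosen one. Polr1e, a subunit that acts in initiation and elongation, went opposite ways at the 2 days. Polr1e gave a signal of 689.6 at day 5, of 1046 with MPA and 608 in the control at day 6, and of 505 with MPA and 708 in the control at day 8. The log2 differences for MPA were 0.78 at day 6 and -0.49 at day 8, and its other probe set gave 1.24 and -0.84.

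Rrn3, the factor that brings the polymerase to the promoter and is controlled by growth signals, also had MPA differences of opposite sign. Its shape was another one, since with MPA it was near level from day 6 to day 8 (0.05), where Polr1e was lower at day 8 (-1.05). Rrn3 gave a signal of 1509 at day 5, of 1312 with MPA and 846 in the control at day 6, and of 1362 with MPA and 1977 in the control at day 8. The day 6 control was the lowest of the 5 arrays, so that the MPA difference was 0.63 at day 6 and -0.54 at day 8. Ubtf, which binds along the ribosomal DNA and keeps it open, was the 1 gene of the 7 that was higher with MPA at both days. Ubtf gave a signal of 927 at day 5, of 922 with MPA and 634 in the control at day 6, and of 1171 with MPA and 1015 in the control at day 8. Its other probe set gave -0.65 at day 8, opposite to the 0.21 of the chosen one. Polr1c and Polr1d encode the subunits shared with RNA polymerase III. Polr1c gave a signal of 5411 at day 5, of 4432 with MPA and 6161 in the control at day 6, and of 4773 with MPA and 5901 in the control at day 8. Polr1d gave a signal of 10769 at day 5, of 8518 with MPA and 10799.8 in the control at day 6, and of 9014 with MPA and 10274 in the control at day 8. Both were lower with MPA at both days and close to level over the 3 controls, although a further probe set of each gave a small positive difference at day 8 (0.08 for Polr1c and 0.11 for Polr1d).

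The 6 nucleolar protein genes were all lower with MPA at day 8 (all genes 51.9%), with a median of -0.57. At day 6, 5 of 6 were lower (all genes 48.5%), with a median of -0.12. Tcof1 and Nolc1 encode the related phosphoproteins treacle and Nopp140, which tie polymerase I and the modification particles together. Tcof1 gave a signal of 893 at day 5, of 530.1 with MPA and 799 in the control at day 6, and of 542 with MPA and 975 in the control at day 8. Nolc1 gave a signal of 3397 at day 5, of 3012 with MPA and 3045 in the control at day 6, and of 2133 with MPA and 3835 in the control at day 8. Tcof1 was lower with MPA at both days (log2 differences -0.59 and -0.85), but both of its further probe sets were higher with MPA at day 6 (0.54 and 0.66), and 1 of them, at 0.23, also at day 8. Nolc1 was level at day 6 (-0.02) and lower at day 8 (-0.85), where its 2 further probe sets gave -0.64 and -1.18, although 1 further probe set gave 0.62 at day 6. Ddx21, an RNA helicase of ribosomal RNA transcription and processing, was another gene with a low day 6 control. Ddx21 gave a signal of 2604 at day 5, of 2423 with MPA and 1599.6 in the control at day 6, and of 1705 with MPA and 2647 in the control at day 8. Its MPA difference was 0.60 at day 6 and -0.64 at day 8, and the other probe set gave 0.76 and -0.64.

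Nucleolin and nucleophosmin, the abundant histone and RNA chaperones of the nucleolus, are encoded by Ncl and Npm1. Ncl gave a signal of 31062 at day 5, of 22455 with MPA and 26218 in the control at day 6, and of 19254 with MPA and 27286 in the control at day 8. Npm1 gave a signal of 66753 at day 5, of 50799 with MPA and 64017 in the control at day 6, and of 64002 with MPA and 70037 in the control at day 8. Ncl was lower with MPA at both days, by log2 differences of -0.22 and -0.50, but 1 further probe set went the other way at day 6 (0.74) and 1 at day 8 (0.40). Npm1 had -0.33 at day 6 and -0.13 at day 8, but with quantile normalization these were -0.02 and -0.03. Mybbp1a, a Myb-binding protein of the nucleolus, had one of the 3 highest differences of day 8 against day 5 in the controls (0.41), where its other probe set gave -0.11. Mybbp1a gave a signal of 8514 at day 5, of 6883 with MPA and 6980.2 in the control at day 6, and of 8311 with MPA and 11269 in the control at day 8. With MPA the day 8 signal was near that of day 5, a log2 difference of -0.44 from the control of its day.

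All 4 box C/D genes were lower with MPA at day 8 (all genes 51.9%), with a median of -0.61. At day 6, 3 of 4 were lower (all genes 48.5%), with a median of -0.06. Rrp9 binds the box C/D RNA of the small subunit processome. Rrp9 gave a signal of 331 at day 5, of 85.7 with MPA and 209 in the control at day 6, and of 49.0 with MPA and 249 in the control at day 8. Both MPA arrays lay under the floor of 86.8. On the deposited scale and with this floor, Rrp9 thus differed by at least 2.41-fold at day 6 and 2.86-fold at day 8, lower with MPA both times. With quantile normalization the log2 differences were -1.17 and -1.43. It had the largest mean MPA difference of all members, on 1 probe set. Fbl, the methyltransferase fibrillarin, and Nop56, a scaffold of the same particle, were level at day 6 and lower at day 8. Fbl gave a signal of 16002 at day 5, of 9668 with MPA and 10280.2 in the control at day 6, and of 7617 with MPA and 11197 in the control at day 8. Nop56 gave a signal of 6686 at day 5, of 6011 with MPA and 6115 in the control at day 6, and of 7119.6 with MPA and 11225 in the control at day 8. The log2 differences at day 8 were -0.56 for Fbl and -0.66 for Nop56, and the other probe sets gave -0.57 and -0.78, while at day 6 the other probe set of Fbl gave -0.63. In the controls the 2 genes differed, since Nop56 was higher at day 8 than at day 5 by 0.75 and Fbl lower by -0.52. Nop58, the other scaffold protein, had MPA differences of 0.44 at day 6 and -0.26 at day 8.

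The box H/ACA genes were the role with the lowest median, and the only one of the 6 whose members were all lower with MPA at both days. At day 8 the median of the 4 was -0.66 and at day 6 it was -0.16. The medians of the box C/D genes (-0.61) and the nucleolar genes (-0.57) at day 8 were close to it, and all of these were lower at day 8 too. At day 8 51.9% of all genes were lower, and at day 6 48.5%. Dkc1 encodes the pseudouridine synthase dyskerin, and Nhp2, Nop10 and Gar1 its core partners, a particle that telomerase RNA also uses. Dkc1 gave a signal of 9434 at day 5, of 5566 with MPA and 6109 in the control at day 6, and of 4479.8 with MPA and 7509 in the control at day 8. Nhp2 gave a signal of 10931 at day 5, of 7052 with MPA and 7511 in the control at day 6, and of 5419 with MPA and 8779 in the control at day 8. Gar1 gave a signal of 6625 at day 5, of 3249 with MPA and 4098 in the control at day 6, and of 2919.5 with MPA and 4469.6 in the control at day 8. In each the MPA array of day 8 had the lowest signal of the 5. The MPA differences were -0.13, -0.09 and -0.34 at day 6, and -0.75, -0.70 and -0.61 at day 8, in the order Dkc1, Nhp2, Gar1. At day 8 the further probe sets of Dkc1 gave -0.83 and -0.85 and that of Nhp2 gave -0.70, while at day 6 both further probe sets of Dkc1 were slightly positive (0.10 and 0.21). Nop10 gave a signal of 16289.5 at day 5, of 11928 with MPA and 13533 in the control at day 6, and of 7525 with MPA and 10303 in the control at day 8. Unlike most members, Nop10 was lower at each later control, and its MPA difference was -0.18 at day 6, where a further probe set gave 0.14, and -0.45 at day 8. Against the day 5 control all 4 were 2-fold or more lower with MPA at day 8, with log2 differences from -1.18 to -1.01. Without MPA all 4 were also lower at day 8 than at day 5, by log2 differences from -0.66 to -0.32 (median -0.45). With MPA at day 8, 8 of the 43 members were 2-fold lower than in the day 5 control (all genes 8.65%).

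The 9 genes of small subunit assembly were mostly higher with MPA at day 6 and lower at day 8. At day 6, 7 of 9 were higher (all genes 51.5%), with a median of 0.22. At day 8, 8 of 9 were lower (all genes 51.9%), with a median of -0.26. Bysl, bystin, which acts late in the maturation of the small subunit, and Utp20, a large scaffold of the processome, were the 2 that were 1.5-fold higher at day 6. Bysl gave a signal of 1249.6 at day 5, of 1354 with MPA and 862 in the control at day 6, and of 909.8 with MPA and 1388 in the control at day 8. Utp20 gave a signal of 3271 at day 5, of 3395 with MPA and 1969 in the control at day 6, and of 2752 with MPA and 2929 in the control at day 8. Bysl was 1.5-fold lower with MPA at day 8 (-0.61), whereas Utp20 differed by -0.09. Both had their lowest signal in the day 6 control, although the other probe set of Bysl was higher at day 6 than at day 5 (0.20). Wdr43 and Heatr1 belong to the early subcomplex that couples transcription to processing. Wdr43 gave a signal of 4199 at day 5, of 2384 with MPA and 2933 in the control at day 6, and of 1933 with MPA and 2871 in the control at day 8. Heatr1 gave a signal of 2058 at day 5, of 1289 with MPA and 1061 in the control at day 6, and of 1219.9 with MPA and 1696 in the control at day 8. Wdr43 was lower with MPA at both days (-0.30 and -0.57, its other probe set 0.20 and -0.54), while Heatr1 had 0.28 at day 6 and -0.48 at day 8, beside one of the 3 lowest control differences of day 6 against day 5 (-0.96, with -0.03 and -0.23 on its 2 further probe sets). Nob1, the nuclease of the last cut of the small subunit RNA, was the exception of the 9 at day 8. Nob1 gave a signal of 2284 at day 5, of 1584 with MPA and 1365 in the control at day 6, and of 2054 with MPA and 1542 in the control at day 8. It was higher with MPA at both days (0.22 and 0.41). Of the rest, Wdr75, Imp4, the helicase gene Ddx10 and Rrp12, of subunit export, had day 6 differences between -0.04 and 0.56 and day 8 differences between -0.33 and -0.14, none of them 1.5-fold on the chosen probe sets. At day 8 the further probe sets went the other way, with 0.89 for Wdr75, 0.15 and 0.42 for Imp4 and 0.03 for Ddx10, while Rrp12 has 1 probe set.

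The 13 genes of large subunit assembly were mostly lower with MPA at day 8, with 10 of 13 lower (all genes 51.9%) and a median of -0.33. At day 6, 8 of 13 were higher (all genes 51.5%), with a median of 0.12. Bop1, Pes1 and Wdr12 encode the 3 proteins of one complex of large subunit maturation, and their patterns differed. Bop1 gave a signal of 636 at day 5, of 589 with MPA and 197 in the control at day 6, and of 374 with MPA and 546 in the control at day 8. Pes1 gave a signal of 2415 at day 5, of 1694 with MPA and 2077 in the control at day 6, and of 1771 with MPA and 2193 in the control at day 8. Wdr12 gave a signal of 2274 at day 5, of 1591 with MPA and 1641 in the control at day 6, and of 923 with MPA and 1294 in the control at day 8. Bop1 had the deepest control trough of all members, -1.69 from day 5 to day 6 and 1.47 from day 6 to day 8, so that its MPA difference was 1.58 at day 6 and -0.55 at day 8. Its other probe set was above the floor at day 5 alone, so this trough rests on 1 probe set. Pes1 was lower with MPA by a like amount at both days (-0.29 and -0.31), although its other probe set gave 1.10 at day 6. Wdr12 was lower at each later control and lower still with MPA at day 8 (-0.49). Its other probe set gave -0.51 for MPA at day 8, but in the controls it went the other way from day 6 to day 8 (1.11) and from day 5 to day 8 (0.37), and with MPA at day 6 (0.91).

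Rrp1b, which links ribosome assembly with gene regulation, had the lowest MPA difference of the 13 at day 8. Rrp1b gave a signal of 2701 at day 5, of 2398 with MPA and 1518 in the control at day 6, and of 2451 with MPA and 4645 in the control at day 8. The difference was 0.66 at day 6 and -0.92 at day 8, and its 2 further probe sets gave 0.07 and -0.27 at day 6 and -0.40 and -1.14 at day 8. Its large step in the controls, 1.61 from day 6 to day 8, was opposite on 1 further probe set, at -0.71. Ftsj3, a methyltransferase of the precursor RNA, was 1.5-fold lower with MPA at day 8. Ftsj3 gave a signal of 683 at day 5, of 861 with MPA and 598 in the control at day 6, and of 482 with MPA and 748 in the control at day 8. It was higher with MPA at day 6 (0.53) and lower at day 8 (-0.64) on its 1 probe set. Nop2, a cytosine methyltransferase of the large subunit RNA, Noc3l and Nop16 were the 3 that were higher with MPA at day 8. Nop2 gave a signal of 722 at day 5, of 866 with MPA and 613 in the control at day 6, and of 979 with MPA and 844 in the control at day 8. Nop16 gave a signal of 1672 at day 5, of 1161 with MPA and 1207 in the control at day 6, and of 960.0 with MPA and 882 in the control at day 8. These differences were small, 0.21 for Nop2, 0.07 for Noc3l (-0.33 on its other probe set) and 0.12 for Nop16, and Nop16 stood out more for a control level that was lower at each later day (-0.92 from day 5 to day 8). Noc2l, Rrs1, Ddx18, Nip7 and the GTPase gene Gnl2 were lower with MPA at day 8 by log2 differences from -0.52 to -0.28 on the chosen probe sets. The other probe set of Noc2l gave 0.64 at day 8, and 1 of the 2 others of Gnl2 gave 0.09. Noc2l gave a signal of 1235 at day 5, of 948 with MPA and 1341 in the control at day 6, and of 953 with MPA and 1160.0 in the control at day 8. Nip7 gave a signal of 5666 at day 5, of 4552 with MPA and 4501 in the control at day 6, and of 4545 with MPA and 5725 in the control at day 8. Noc2l was one of the 3 lowest members at day 6 (-0.50), while Nip7 read 0.02 there on the chosen probe set and -1.28 on the other.

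**Figure D3:**
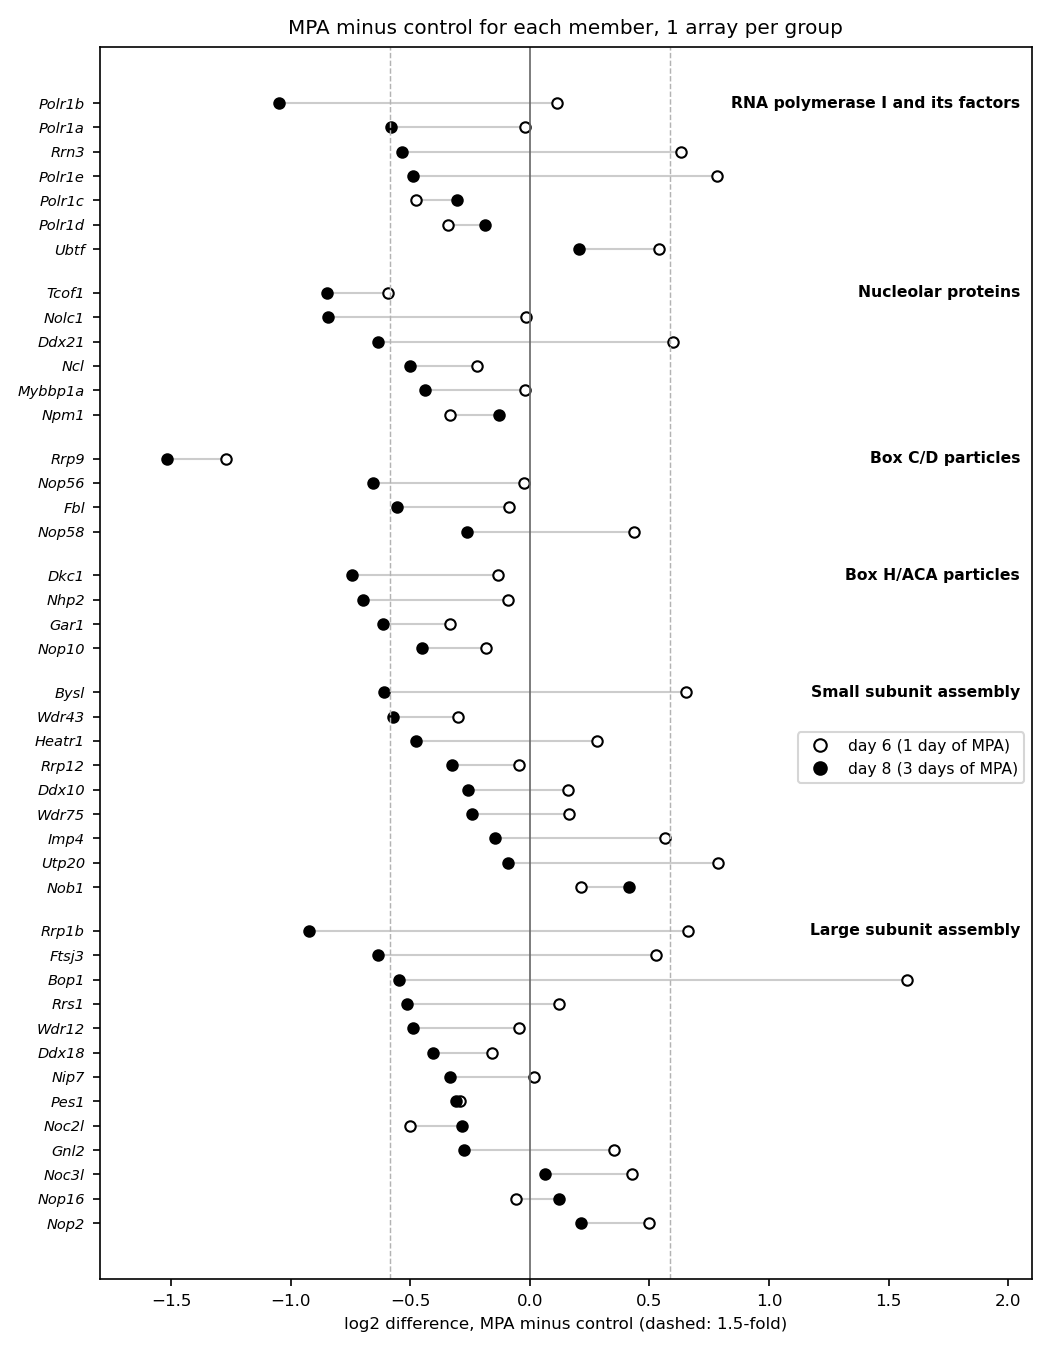
Log2 difference of MPA minus control for each of the 43 members (rows, by role), at day 6 (open circles) and day 8 (filled circles), from 1 array per group. Dashed lines mark a 1.5-fold difference. Filled circles lie left of 0 for 38 members, open circles lie on both sides, and Bop1 at day 6 and Rrp9 at both days stand furthest out.

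A difference common to both days was tested in limma, with day as a factor and the 4 arrays of days 6 and 8 in 1 fit over 11599 genes, which leaves 1 residual degree of freedom. No member passed at a Benjamini-Hochberg adjusted p under 0.05 (0 of 43, all genes 0.00862%), and the lowest adjusted p was 0.568, for Rrp9, with a mean log2 difference of -1.39 (SE 0.37), lower at both days. Both MPA values of Rrp9 in this fit are the floor itself. At an unadjusted p under 0.05 there were 4 members, Rrp9, Ncl, Gar1 and Tcof1, all lower (all genes 3% lower at that p). The fit takes the disagreement of the days as its error, and 21 members were lower and 4 higher with MPA at both days, while 17 were higher at day 6 and lower at day 8 and 1, Nop16, the reverse. Among the 9091 genes above the floor on all arrays these shares were 25.7%, 27.6%, 26.2% and 20.5%.

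Second probe sets gave a partial repeat within the same RNA. At day 8, 31 of 44 further probe sets of members went the same way for MPA as the chosen one (70.5%, all genes 62.0%), and at day 6 it was 26 of 42 (61.9%, all genes 60.7%). For the 8 members 1.5-fold apart at day 8 that had further probe sets, 11 of 12 further probe sets went the same way, the exception being 1 of Tcof1. For members 1.5-fold apart in other pairs of arrays it was 4 of 7 for MPA at day 6, 10 of 11 for day 6 minus day 5, 9 of 11 for day 8 minus day 6 and 2 of 5 for day 8 minus day 5. The share over all genes 1.5-fold apart was not counted, so these counts have no matching background. Over members of any difference, 33 of 43 further probe sets went the same way for day 6 minus day 5 in the controls (76.7%, all genes 60.7%). For day 8 minus day 6 it was 32 of 43 (74.4%, all genes 63.9%), and for day 8 minus day 5 it was 30 of 45 (66.7%, all genes 65.2%). With MPA, for day 8 minus day 6, it was 28 of 44, below the share of all genes (63.6%, all genes 67.8%).

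Genes of the pathway outside the list were mostly lower with MPA at day 8 as well. Of 86 other biogenesis genes (further polymerase I factors, processome and large subunit assembly proteins and the RNA exosome), 76 were lower with MPA at day 8 (all genes 51.9%), with a median log2 difference of -0.29, and 13 of them were 1.5-fold lower (all genes 11.2%) and 1 was 1.5-fold higher (all genes 11.4%). At day 6, 36 of 85 were lower (all genes 48.5%), with a median of 0.07. All 11 exosome genes, whose complex trims precursor RNA, were lower with MPA at day 8 (median -0.56), among them Exosc2, which had 905 with MPA and 1484 in the control. Sdad1, of large subunit export, had the largest mean MPA difference of the large subunit genes, with 425 with MPA and 1009 in the control at day 8. The 15 genes of RNA polymerase III and its factors had medians of 0.10 at day 6 and -0.18 at day 8. At day 8, 11 of 15 were lower (all genes 51.9%).

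Cytosolic ribosomal protein genes showed another order of the days on the deposited scale. These genes, 43 measured, had a median of -0.27 for MPA at day 6, with 38 lower (all genes 48.5%). At day 8 the median was -0.15, with 40 lower (all genes 51.9%). Their shift was thus larger at day 6, where the members had none. Many of them are as bright as Npm1, whose day 6 difference went from -0.33 to -0.02 with quantile normalization. That setting was not run for this list, so the order of its days may depend on the scale. Mitochondrial ribosomal protein genes, 74 measured, had medians of 0.04 at day 6 and -0.21 at day 8, with 65 lower at day 8 (all genes 51.9%). In the controls from day 6 to day 8 the members were higher and the mitochondrial genes lower (medians 0.25 and -0.16). Myc, the transcription factor that drives many members in other cells, had its lowest signal of the 5 arrays in the day 6 control. This held for 15 of the 43 members and for 16.8% of the 9091 genes above the floor on all 5 arrays. Myc gave a signal of 947 at day 5, of 802 with MPA and 365 in the control at day 6, and of 1096 with MPA and 1953 in the control at day 8. Mycn gave a signal of 2167 at day 5, of 2541 with MPA and 2594 in the control at day 6, and of 4315 with MPA and 5844 in the control at day 8. The MPA differences were 1.14 at day 6 and -0.83 at day 8 for Myc, and -0.03 and -0.44 for Mycn. Among the 3 controls Myc was thus lowest at day 6, and Mycn was not. The day 6 control was the lowest of the 3 controls, a looser condition, for 35 members and for 28.3% of the same 9091 genes. Whether Myc or Mycn has a part in the member differences was not tested.

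**Figure D4:**
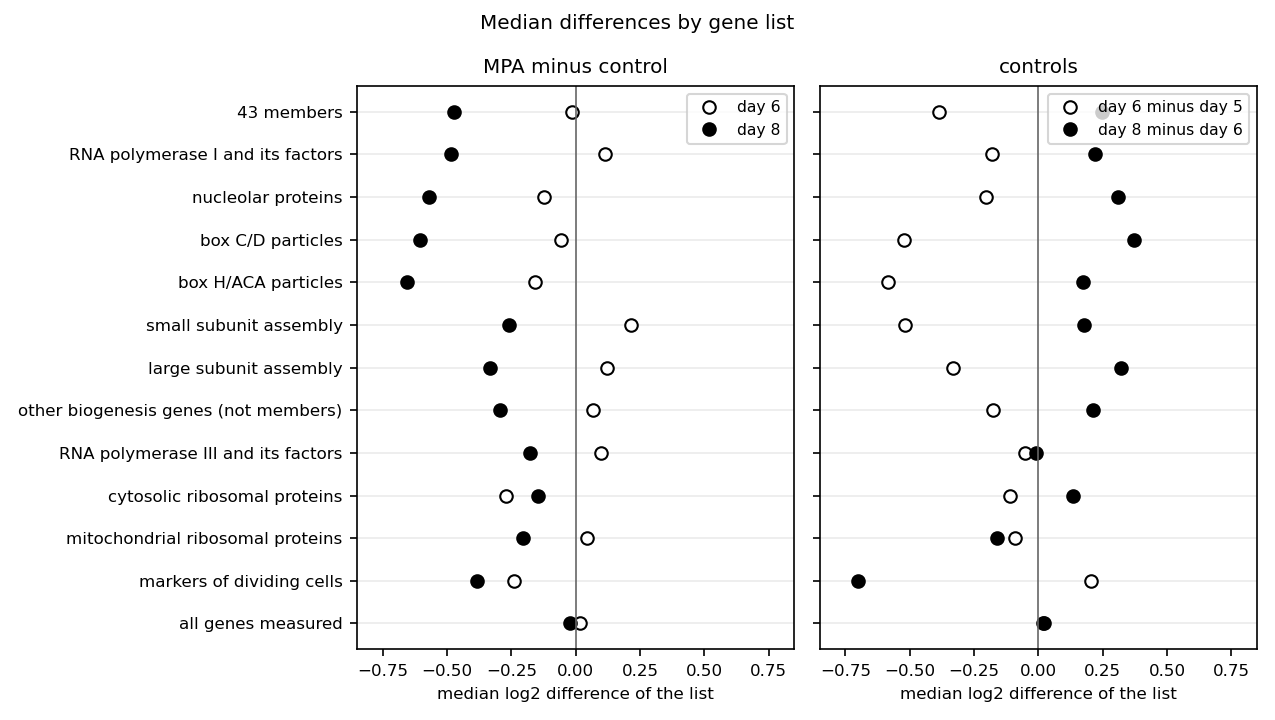
Median log2 difference of each gene list (rows), on the left for MPA minus control at day 6 (open) and day 8 (filled), on the right for the controls, day 6 minus day 5 (open) and day 8 minus day 6 (filled). At day 8 with MPA the medians of the 6 member roles lie between -0.66 and -0.26 and that of all genes at -0.02, and the markers of dividing cells lie at -0.39.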

How the data were processed

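Biotin-labelled cRNA of 5 mouse embryonic stem cell-derived samples went onto 5 Affymetrix mouse expression arrays, 1 for each group. The deposited values are linear intensities, 1 for each probe set, made with MAS5 per the submitters' processing notes, with settings not given in the sources used here. Of 45101 probe sets, 64 controls were left out and 34945 had 1 gene symbol in the platform annotation, giving 18193 genes. Of the members, 33 had several probe sets, and 13 were represented by one ending in _s_at, _x_at or _a_at, which can bind related transcripts. Signals under the floor of 86.8 were raised to it before log2. A gene counted as measured where 1 of the 2 arrays lay above it. All members passed except in 1 comparison, MPA at day 8 with MPA at day 6, where Rrp9 was under the floor on both arrays. Fits used limma 3.58.1 (R 4.3.3, lmFit, eBayes with trend and robust) on genes that exceeded the floor on 2 or more of 4 arrays, Benjamini-Hochberg adjusted over all genes. On simulated data for this fit (11599 genes) it called 50.6%, 96.4% and 100% of genes changed by a log2 of 1, 2 and 3, and 16 of 11399 unchanged genes. The simulation gave each changed gene the same difference at both days, with noise set by signal level alone. These rates therefore do not carry over to genes whose MPA difference varies between the days, as in most members. Other steps used Python 3.11.15, numpy 2.4.6 and pandas 2.3.3. Members, roles and lists were chosen with earlier results of these data known, and comparisons of MPA with day 5 were added after values were seen. Signals on every array are given for the members with the highest mean signal and the largest mean MPA difference of each role, those 1.5-fold apart with MPA, and the 3 highest and 3 lowest of each pair of arrays. Alternatives were quantile normalization, median centring, other floors, log2(signal + floor), the mean over probe sets, leaving out suffixed probe sets and other limma settings. Of the lists, 44 of 79 cytosolic ribosomal protein genes had a probe set with 1 symbol.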

Additional observations from a re-analysis of the deposited data

Results flagged for a closer look

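For 9 members the MPA difference had opposite signs at the 2 days, with at least 1 of the 2 being 1.5-fold. The share of all genes that meet this rule was not counted. Without the 1.5-fold condition, 17 of the 43 members were higher with MPA at day 6 and lower at day 8. Among the 9091 genes above the floor on all 5 arrays this share was 26.2%. The difference between the days was not tested, since each group is 1 array. The MPA difference of day 8 minus that of day 6, on the log2 scale, was -2.13 for Bop1 and -1.58 for Rrp1b. It was -1.27 for Polr1e, -1.26 for Bysl and -1.23 for Ddx21. For Rrn3 it was -1.17, for Polr1b and for Ftsj3 -1.16 each, and for Utp20 -0.88. On the chosen probe sets all 9 were higher with MPA at day 6 and lower with MPA at day 8, but with quantile normalization Polr1b had -0.01 at day 6, and 1 further probe set of Rrp1b gave -0.27 at day 6. In 6 of them (Bop1, Rrp1b, Bysl, Ddx21, Rrn3 and Utp20) the day 6 control was the lowest of the 5 arrays. It held that place in 15 of the 43 members and in 16.8% of the same 9091 genes.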

How the results depend on the processing

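Pairing by replicate number was not possible with 1 array per group and no numbers in the labels. The limma fit sets MPA against control within each day through its day term, and without that term 0 members passed. Over 7 other settings of scale, floor and probe set, and 4 further limma settings, 130 of 137 list values stayed near the reported ones. The median MPA difference at day 8 ran from -0.48 to -0.35 with 34 to 38 members lower, and that at day 6 from -0.10 to 0.13 with 16 to 23 lower, so the sign at day 6 depends on the setting. With the mean over probe sets these medians were -0.35 at day 8 and 0.13 at day 6, and without suffixed probe sets the day 6 median was 0.12 (40 members). For day 8 minus day 5 in the controls that last setting gave -0.10. Median centring gave 5 members 1.5-fold apart for MPA at day 6, in place of 9, and 9 for day 8 minus day 5, in place of 5, and the mean over probe sets gave 3 for day 8 minus day 5. The control medians ran from -0.43 to -0.35 for day 6 minus day 5 and from 0.21 to 0.34 for day 8 minus day 6. In limma 0 members passed under any of the 11 alternatives, with 0 to 7 at an unadjusted p under 0.05. Of 590 values of single members, 26 moved by more than 0.29 on the log2 scale, most of them with another choice of probe set, and 23 changed sign (16 at day 6 and 7 at day 8). The sign changes were 13 with the mean over probe sets, 5 without suffixed probe sets, 4 with quantile normalization and 1 with median centring. Among members 1.5-fold apart, 1 changed sign, Tcof1 at day 6, with 0.20 for the mean over probe sets in place of -0.59. At day 8, Wdr75, Noc2l, Imp4, Ubtf and Noc3l changed sign with the mean over probe sets (0.32, 0.18, 0.15, -0.22 and -0.13), and Polr1c and Wdr75 without suffixed probe sets (0.08 and 0.89). Rrp9, whose MPA signals lie under the floor, has only a lower bound, which depends on the scale and the floor.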
